A study of Danio rerio with 23 samples.

Results

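The genes that end the light response of rods and cones were examined in zebrafish (Danio rerio) retinae after light-induced retinal damage (LIRD) and in control (CTRL) retinae. They were listed by name, with earlier results of these data already known. The list held the rod arrestins saga and sagb, the cone arrestins arr3a and arr3b, and the opsin kinases grk1a, grk1b, grk7a and grk7b. It also held the G-protein regulator rgs9a and the recoverin rcvrn2. The symbols matched 10 of the 25281 genes in the count table. saga, sagb and grk1b had an entry of their own, and the entry named GRK1 was taken as grk1a because grk1b was listed separately. ARR3, GRK7 and RGS9 each named a pair of genes, and the annotation does not say which is the a and which the b paralog. They are called ARR3-I (ENSDARG00000056511), ARR3-II (ENSDARG00000098475), GRK7-I (ENSDARG00000020602), GRK7-II (ENSDARG00000055534), RGS9-I (ENSDARG00000037925) and RGS9-II (ENSDARG00000045156), and the numerals stand for no paralog letter. Both RGS9 genes are counted although rgs9a is a single gene. No entry was named rcvrn2, so RCVRN-I (ENSDARG00000009637) and RCVRN-II (ENSDARG00000019902) are set beside the 10 genes and are not counted with them.

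When light activates an opsin, a G-protein receptor kinase phosphorylates it and arrestin then binds and blocks it. GRK1 is an opsin kinase of mammalian rods, though not of rods alone, and GRK7 a cone kinase in the species that have it. SAG is the arrestin of rods and ARR3 that of cones. RGS9, held in a complex with GNB5 and the anchor protein RGS9BP, speeds up GTP hydrolysis by transducin and so turns off the phosphodiesterase. Recoverin is a calcium sensor that inhibits opsin kinase in the dark.

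LIRD retinae came from fish exposed to intense white light, and CTRL retinae from fish that were not. The sources differ on the treatment. The labels describe adult fish, 15000 lux for 24 h and dissection straight after the exposure, while the methods of the study describe pigmented larvae at 4 dpf, 50000 lux for 3.5 h and collection after 48 h of recovery in the dark. The wild-type line is TU in the methods, which also name a transgenic mCherry reporter line. Poly(A) RNA was sequenced in 8 LIRD libraries (replicates 1, 2, 4, 5, 6, 9, 10 and 11) and 9 CTRL libraries (replicates 1, 2, 3, 4, 5, 6, 8, 10 and 11). The other 6 of the 23 labelled samples had no column in the count table and were not analysed here. The study states that it left out samples that were outliers and did not group with their replicates. Its figure legends give 9 CTRL and 8 LIRD libraries, the same numbers as the columns. Whether the 6 are those samples is not stated outright in the sources used here.

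Each library held 97506021 to 150347385 counts in LIRD and 70932504 to 144932681 in CTRL. LIRD 5 and 11 were nearly alike, as were CTRL 3 and 11, with a chi-square per degree of freedom of 11.98 and 14.98 over genes, against 73.9 or more for every other pair within a condition. Both pairs exceed counting noise and were counted as separate libraries, but libraries made from shared RNA could exceed it too, so their independence was not shown, and results are also given with each pair added up. The sequencing index numbers of the labelled samples run from 7 to 29 without a gap. Numbers 7 to 10 alternate between CTRL and LIRD and are replicates 1 and 2 of each condition. Numbers 11 to 20 are all CTRL and 21 to 29 all LIRD. The libraries were split here after number 10 into a first library series and a second, which holds 6 LIRD and 7 CTRL libraries. The labels do not call these batches. The labels call the libraries biological replicates, and the study describes each as made from a pool of 50 larval retinae.

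None of the 10 genes was a differentially expressed gene (DEG), called with the study's thresholds where the fold change was over 1.5 in either direction and the adjusted p (false discovery rate, FDR) was under 0.05. In the edgeR fit 9 of 22503 tested genes (0.04%) were DEGs, 8 higher (0.0356%) and 1 lower (0.00444%) in LIRD. DESeq2 called 78 of 24738 (0.315%) and limma-voom 9, with 0 of the 10 genes in both. At an unadjusted p under 0.05, which 7.64% of all genes passed in edgeR and 8.36% in DESeq2, 6 of the 10 passed with each of the 3 tools. With the near-identical libraries added up 2 passed (6.54% of all genes), with the replicate number as a block 4 (5.9%), in the first library series alone 4 (39.1%) and in the second alone 5 (4.38%). The block kept only replicate numbers found in both conditions, so LIRD 9, CTRL 3 and CTRL 8 were left out of it. In the edgeR fit of all libraries, 1 of the 6 genes was higher in LIRD and 5 were lower, where 4.9% of all genes were higher and 2.74% lower at that p. The median log2 fold change was -0.34 over the 10 genes and 0.017 over all tested genes. The LIRD and CTRL libraries overlapped for each of the 10 genes, and 0.0711% of all tested genes did not overlap. In bulk retina, fewer cells of a type and less RNA per cell cannot be told apart.

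**Figure D1:**
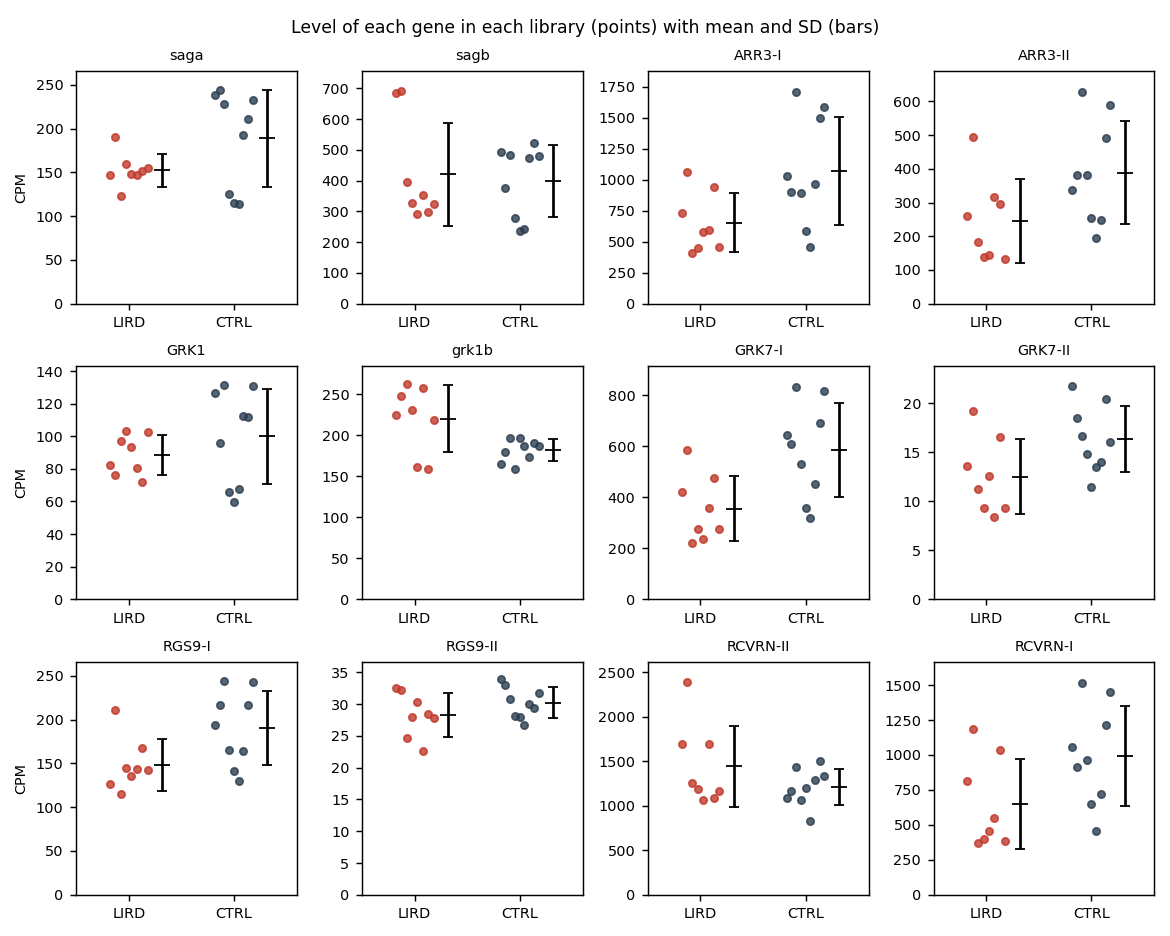
CPM (counts scaled to the TMM-adjusted library size) of the 10 genes and both RCVRN genes in each library, with LIRD left and CTRL right in every panel, points for libraries and bars for the mean and SD. LIRD and CTRL overlap for all 12 genes, and for saga and GRK1 some CTRL points lie above and some below all LIRD points.

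The cone arrestins, which bind phosphorylated cone opsins, had the lower mean in LIRD. ARR3-I was at 412 CPM in the lowest LIRD library, 586 at the median and 1065 in the highest, against 455, 968 and 1710 CPM in CTRL. LIRD 4, 5 and 11 were lowest, LIRD 2 and 10 highest, and 7 of 8 LIRD libraries lay below the CTRL median. The log2 fold change was -0.71 (SE 0.26, unadjusted p = 0.014, FDR = 0.51, edgeR). ARR3-II ran from 132 over a median of 222 to 493 CPM in LIRD, against 194, 380 and 627 CPM in CTRL. Here 4 LIRD libraries lay below every CTRL library and 7 below the CTRL median. Its log2 fold change was -0.66 (SE 0.29, p = 0.031, FDR = 0.61). In the second library series the log2 fold changes were -0.94 for ARR3-I and -0.98 for ARR3-II, and in the first series -0.095 and 0.082; the difference between the series was not tested.

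The GRK7 kinases phosphorylate cone opsins. GRK7-I ran from 219 over a median of 316 to 584 CPM in LIRD, against 320, 607 and 831 CPM in CTRL. All 8 LIRD libraries were below the CTRL median, 4 were below every CTRL library, and LIRD 1, 2, 9 and 10 lay within the CTRL range. This gave a log2 fold change of -0.71 (SE 0.23, 95% interval -1.16 to -0.27), the lowest unadjusted p of the 10 genes (0.0055), and the FDR was 0.41. GRK7-II, with 795 to 2527 counts a library, is the gene of the 10 with the fewest counts. It ran from 8.36 over 11.9 to 19.2 CPM in LIRD, against 11.5, 16.1 and 21.8 CPM in CTRL, and 6 of 8 LIRD libraries were below the CTRL median. Its log2 fold change was -0.39 (SE 0.17, p = 0.032, FDR = 0.61). By library series, GRK7-I was at -0.30 in the first and -0.90 in the second, and GRK7-II at -0.28 and -0.44.

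Of the rod arrestins, saga also had the lower mean in LIRD and sagb did not, and neither passed an unadjusted p under 0.05. saga ran from 123 over 149 to 190 CPM in LIRD, against 114, 211 and 245 CPM in CTRL. All 8 LIRD libraries lay below the CTRL median, but the CTRL libraries split: 6 lay above every LIRD library, and CTRL 5 and 6 lay below every one. The coefficient of variation was 12.2% in LIRD and 29.4% in CTRL. For saga the log2 fold change was -0.31 (SE 0.16, p = 0.074, FDR = 0.68). sagb ran from 292 over 340 to 692 CPM in LIRD, against 237, 474 and 522 CPM in CTRL. LIRD 1 and 2, the first series, were at 684 and 692 CPM, above every CTRL library, and the other 6 LIRD libraries were at or below 395 CPM. The log2 fold change of sagb was 0.077 (SE 0.22, p = 0.73, FDR = 0.91), and it was -0.058 without LIRD 1 and -0.062 without LIRD 2.

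GRK1, the entry taken as the rod kinase grk1a, ran from 71.8 over 87.8 to 104 CPM in LIRD, against 59.5, 112 and 131 CPM in CTRL. As for saga, the LIRD libraries lay inside the CTRL range, with 5 CTRL libraries above and 3 (CTRL 4, 5 and 6) below all of them. Its log2 fold change was -0.18 (SE 0.16, p = 0.28, FDR = 0.71).

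grk1b was the gene of the 10 with a higher mean at an unadjusted p under 0.05. It ran from 159 over 227 to 263 CPM in LIRD, against 159, 187 and 197 CPM in CTRL. In LIRD 6 of 8 libraries lay above every CTRL library, while LIRD 6 (161 CPM) lay just above and LIRD 10 (159 CPM) just below the lowest CTRL library. Its log2 fold change was 0.28 (SE 0.10, p = 0.016, FDR = 0.52). The red and green cone opsins opn1lw2 and opn1mw1, named after their values were seen, ranked the libraries in a like way: 6 of 8 LIRD libraries lay above every CTRL library for each, with LIRD 6 and 10 low, and their log2 fold changes were 0.46 (p = 0.019, FDR = 0.55) and 0.48 (p = 0.018, FDR = 0.54). After subtracting each condition's mean, grk1b had a Pearson r of 0.86 with opn1lw2 and 0.87 with opn1mw1 over the 17 libraries. With the cone genes GNAT2 and PDE6C its r was 0.33 and -0.28, and with the rod gene GNAT1 it was 0.61. Genes read in the same library share its depth and composition, which differed between libraries. Neither their part in these r values nor the cell type of grk1b was tested.

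RGS9-I ran from 115 over 143 to 210 CPM in LIRD, against 130, 194 and 245 CPM in CTRL, and 7 of 8 LIRD libraries lay below the CTRL median. Its log2 fold change was -0.36 (SE 0.14, p = 0.020, FDR = 0.56). RGS9-II was the steadiest of the 10 genes over the 17 libraries, with its highest library 1.51 times its lowest. It ran from 22.6 over 28.2 to 32.5 CPM in LIRD, against 26.8, 30.1 and 34.0 CPM in CTRL, with a log2 fold change of -0.092 (SE 0.079, p = 0.26, FDR = 0.71).

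Of the 2 genes named RCVRN, RCVRN-I ran from 374 over 502 to 1188 CPM in LIRD, against 458, 964 and 1514 CPM in CTRL. Its log2 fold change was -0.61 (SE 0.28, p = 0.041, FDR = 0.63), with 0.035 in the first library series and -0.90 in the second. RCVRN-II ran from 1062 over 1222 to 2391 CPM in LIRD, against 833, 1202 and 1500 CPM in CTRL, and its log2 fold change was 0.25 (SE 0.17, p = 0.15, FDR = 0.70). LIRD 1, 2 and 9 lay above every CTRL library for RCVRN-II, which was at 0.87 in the first series and 0.0073 in the second. The recoverin entries rcvrna and rcvrnb had log2 fold changes of 0.11 (p = 0.42) and 0.035 (p = 0.84) in edgeR.

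**Figure D2:**
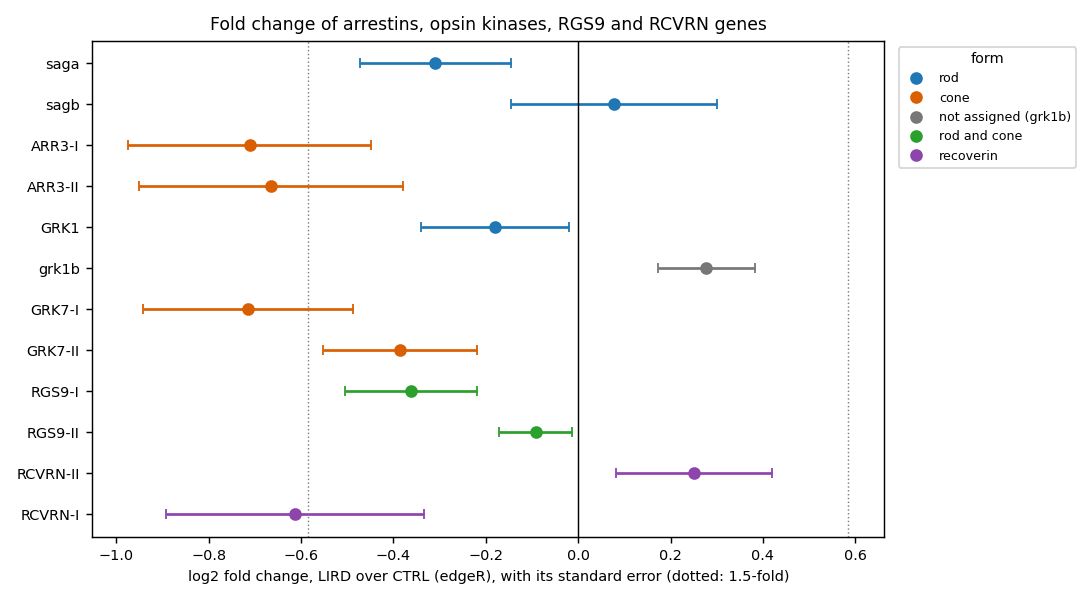
Log2 fold change of LIRD over CTRL from the edgeR fit (points) with its standard error (bars) for the 10 genes and both RCVRN genes, coloured by form, with dotted lines at a 1.5-fold change. ARR3-I at -0.71 and GRK7-I at -0.71 lie furthest to the left, and grk1b at 0.28 and RCVRN-II at 0.25 furthest to the right.

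Set by form, the cone genes ARR3-I, ARR3-II, GRK7-I and GRK7-II were 4 of 4 lower at an unadjusted p under 0.05, as 2.74% of all genes were, and the rod genes saga, sagb and GRK1 were 0 of 3. The 4 cone genes are not 4 separate observations, since they varied together over the libraries (Pearson r of 0.58 to 0.93 after subtracting each condition's mean). The cone count depended on the libraries: with the near-identical libraries added up it was 1 of 4 (GRK7-I, p = 0.025), with the replicate block 3 of 4 (ARR3-I at p = 0.059), in the second series alone 4 of 4 and in the first series alone 0 of 4. In the first series alone the rod genes passed instead, with saga at -0.51, GRK1 at -0.47 and sagb at 0.68 on the log2 scale, where 39.1% of all genes passed. grk1b stands in neither count: it was first put down as a cone form and was set apart after its values were seen, because its cell type was not certain. Counted as a cone form, it would be the 1 of 5 that was higher. Whether rod and cone genes differ was tested on ratios within each library, which do not depend on a library's scaling. For the arrestins the rod gene was saga alone, and no ratio of sagb to the ARR3 genes was computed. GRK1 over both GRK7 genes was -1.99 ± 0.68 on the log2 scale in LIRD and -2.58 ± 0.29 in CTRL (SD), a difference of 0.58 (exact permutation test, two-sided, p = 0.036, adjusted over 6 ratios p = 0.121). saga over both ARR3 genes was -2.48 ± 0.46 in LIRD and -2.90 ± 0.39 in CTRL, a difference of 0.42 (exact p = 0.059, adjusted p = 0.121). Neither passed after adjustment. In the second library series alone the differences were 0.82 and 0.69 (exact adjusted p = 0.049 for each). That series holds both near-identical pairs, counted there as separate libraries, and their independence was not shown. With each pair added up over all libraries, neither difference passed after adjustment. In the first series the differences were -0.14 and -0.44, where 2 libraries a condition allow no exact p below 0.333. Without LIRD 2 the GRK1 to GRK7 difference was 0.72 (exact adjusted p = 0.045).

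Within the paralog pairs, sagb over saga differed by 0.31 (exact p = 0.0999, adjusted p = 0.121) and grk1b over GRK1 by 0.39 (exact p = 0.068, adjusted p = 0.121). GRK7-II over GRK7-I differed by 0.31 (exact p = 0.101, adjusted p = 0.121). ARR3-II over ARR3-I differed by -0.040 (exact p = 0.80, adjusted p = 0.80), with 3 LIRD libraries above every CTRL library and 1 below. In the first and second series these differences were 1.21 and 0.021 for sagb over saga, 0.93 and 0.22 for grk1b over GRK1, and 0.021 and 0.40 for GRK7-II over GRK7-I. The high sagb to saga ratios were in LIRD 1, 2 and 4, and the grk1b to GRK1 ratio was above the CTRL median in 8 of 8 LIRD libraries.

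**Figure D3:**
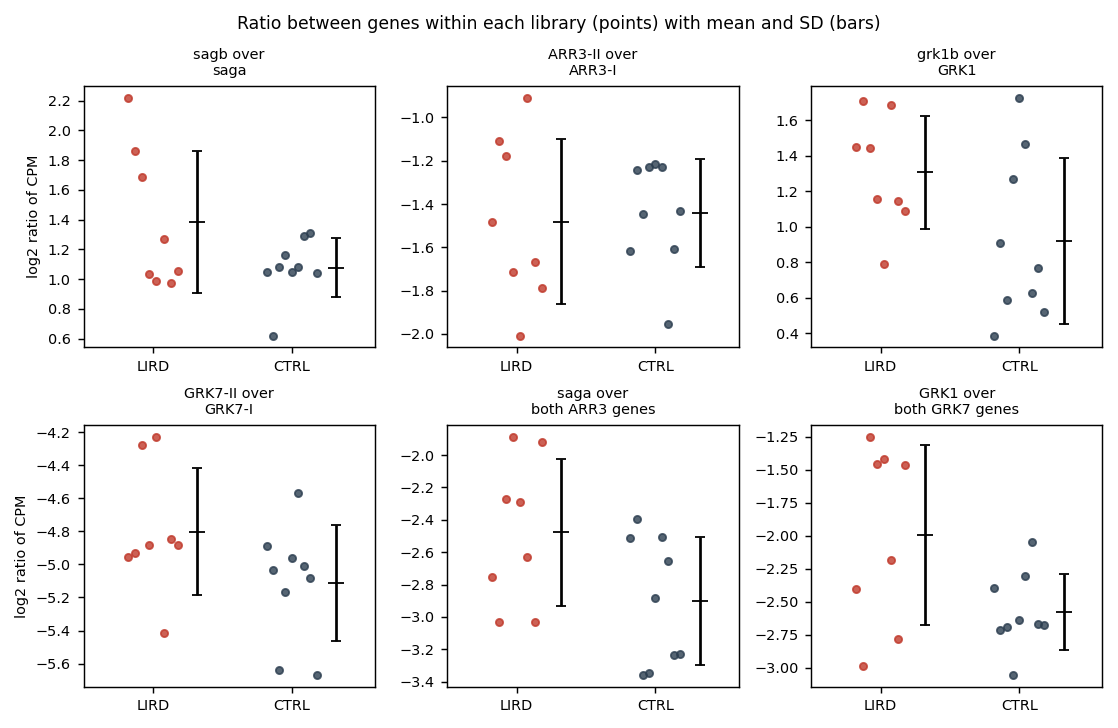
Log2 ratio of CPM between genes within each library for the 6 ratios, with LIRD left and CTRL right, points for libraries and bars for the mean and SD. The groups overlap in every panel. GRK1 over both GRK7 genes averaged -1.99 in LIRD and -2.58 in CTRL.

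ARR3-I, ARR3-II, GRK7-I, RGS9-I and RCVRN-I moved together from library to library. Over the 10 pairs among these 5 genes, Pearson's r of log2 CPM after subtracting each condition's mean was 0.79 to 0.96 over 17 libraries, while grk1b had an r of -0.13 to 0.19 with them. The 5 genes were not set as a group beforehand. With them GRK7-II had an r of 0.58 to 0.74, saga 0.52 to 0.84, sagb 0.56 to 0.70 and RCVRN-II 0.57 to 0.77. RGS9-II had 0.27 to 0.54 and GRK1 0.14 to 0.48, so the 5 are not sharply marked off. Genes read in the same library share its depth and composition, which differed between libraries. The part of depth and composition in these r values was not tested. The genes outside the 10 that were most like ARR3-I by this measure were si:ch73-6k14.2 (r = 0.97), RCVRN-I (0.95) and PLEKHD1 (0.95). Those most like ARR3-II were SH3BGRL2 (0.95), FAM107B (0.94) and cabp5b (0.93), and those most like saga were zyg11l (0.94), arl3l2 (0.88) and MPP4 (0.88).

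Genes of the circadian clock were set beside these. After some of their values had been seen, 20 tested genes were taken: NR1D1, NR1D2, nr1d4a, nr1d4b, npas2, ciarta and PER, CRY, TEF, BMAL and CLOCK genes. The list does not hold every clock gene, so its counts are for these 20 alone. At an unadjusted p under 0.05 (7.64% of all genes in either direction), 3 were higher and 7 lower in LIRD. The other 10 did not pass it, and none was a DEG in edgeR. NR1D1, a repressor of BMAL1, was at 38.4, 63.0 and 64.4 CPM in LIRD 4, 5 and 11, the LIRD libraries lowest in ARR3-I, against 117 to 365 CPM in the other LIRD libraries. In CTRL it was lowest in CTRL 5 and 6, at 196 and 223 CPM, which were also the lowest CTRL libraries for ARR3-I. The log2 fold change of NR1D1 was -1.23 (SE 0.39, p = 0.0055, FDR = 0.41). PER2 was highest in CTRL 3 and 11, at 292 and 294 CPM, which were also the highest libraries for NR1D1 and ARR3-I. It was lowest in CTRL 1 and 2, at 28 and 20.6 CPM, where NR1D1 was at 423 and 536 CPM. In LIRD it was lowest in LIRD 2, at 42.1 CPM, the LIRD library highest in NR1D1 (365 CPM). The log2 fold change of PER2 was -0.18 (p = 0.73, edgeR). LIRD 5 and 11, and CTRL 3 and 11, are the near-identical pairs, whose independence was not shown. Each pair may stand for 1 sample here, and the r values below count both of its libraries. Over the 20 clock genes, the r of their residuals with ARR3-I ran from -0.68 to 0.84 and was above 0 for 14. It was 0.79 for NR1D1, 0.46 for PER2 and -0.58 for BMAL1 (ENSDARG00000006791), but 0.26 for nr1d4a and 0.081 for nr1d4b, relatives of NR1D1. nr1d4a had the lowest p of the 20 genes (log2 fold change -1.36, p = 6.7e-04, FDR = 0.22). The time of day of each collection is not given in the sources used here, and the part of the clock genes in the difference between LIRD and CTRL was not tested.

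**Figure D4:**
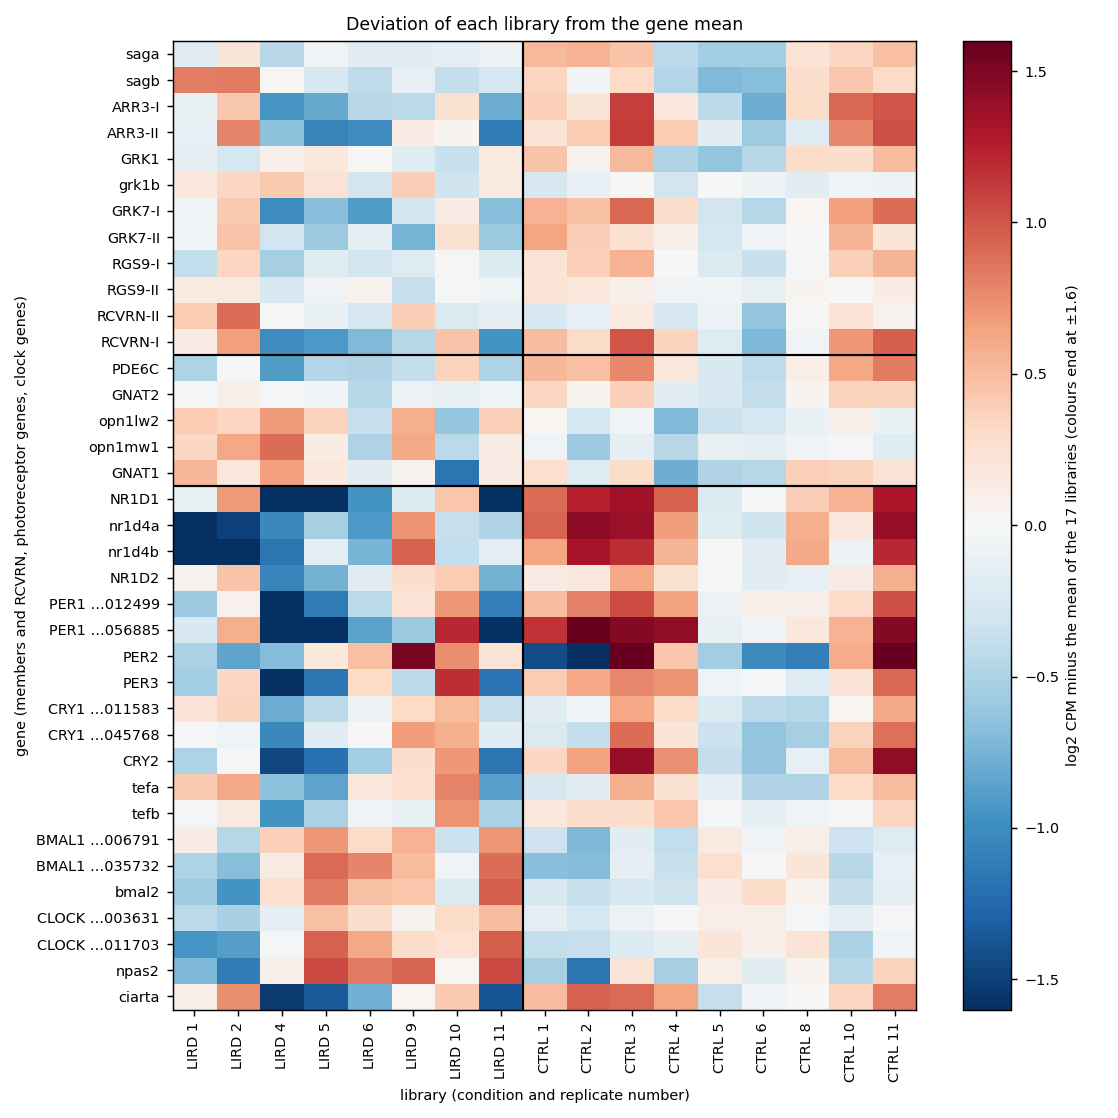
Log2 CPM of each library minus the mean of the 17 libraries, for the 10 genes and both RCVRN genes, 5 photoreceptor genes and 20 clock genes, with LIRD libraries left of the line and CTRL right; colours end at ±1.6. NR1D1 and ARR3-I are both low in LIRD 4, 5 and 11, of which 5 and 11 are a near-identical pair, while PER2 is lowest in CTRL 1 and 2.

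The other genes of the shut-off pathway were taken as a list of partners. Of its 18 tested genes, 0 were higher and 3 lower at an unadjusted p under 0.05, against 4.9% and 2.74% of all genes. None was a DEG in edgeR or DESeq2. The log2 fold changes ran from -0.61 to 0.25 with a median of 0.029. The lowest p values were those of RGS9BP (ENSDARG00000086756), the membrane anchor of RGS9, where LIRD libraries averaged 34.1 ± 10.7 CPM and CTRL libraries 46.7 ± 7.7 CPM (log2 fold change -0.45, p = 0.0098, FDR = 0.47, edgeR), and PDC (ENSDARG00000011886), phosducin, which binds transducin subunits (-0.32, p = 0.034, FDR = 0.61). The third was RCVRN-I. The other RGS9BP entry, rgs9bp (ENSDARG00000009466), was at 0.12 (p = 0.45), and the other PDC entry (ENSDARG00000017634) at -0.23 (p = 0.21). Both GNB5 genes, the partner subunit of RGS9, were at -0.18 (p = 0.28) and -0.11 (p = 0.13). Of 8 other genes of the arrestin and G-protein receptor kinase families, none passed that p, and ARRB1, beta-arrestin, had the lowest (-0.30, p = 0.064), followed by GRK4 (-0.14, p = 0.27).

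The activation side of the cascade held 43 tested genes, 7 higher and 5 lower at an unadjusted p under 0.05, against 4.9% and 2.74% of all genes. Their median log2 fold change was -0.036. opn1lw1, a red cone opsin, averaged 60.4 ± 14.7 CPM over LIRD and 36.3 ± 10.5 CPM over CTRL libraries (log2 fold change 0.74, p = 6.9e-04, FDR = 0.22), and GNGT2 (ENSDARG00000010680), a cone transducin subunit, at 160 ± 76 and 87.5 ± 21.7 CPM in LIRD and CTRL (0.87, p = 0.0017, FDR = 0.29). PDE6C, the cone phosphodiesterase, ran the other way, at 805 ± 230 CPM over LIRD and 1293 ± 363 CPM over CTRL libraries (-0.68, p = 0.0024, FDR = 0.33), and its residuals had an r of 0.91 with ARR3-I. Also lower at that p were the CNGA3 entries ENSDARG00000012297 (-1.04, p = 0.0048) and ENSDARG00000070726 (-0.59, p = 0.0029). The same held for guca1d (-0.67, p = 0.0020) and slc24a2 (-0.60, p = 0.0056, edgeR). The entry SLC24A2 (ENSDARG00000063158) was at -0.27 (p = 0.27, edgeR). At that p the cone markers were 5 higher and 3 lower of 23 with a median of 0.052, and the rod markers 0 of 16 with a median of 0.034. These 8 cone markers also stand in the activation list, so they are the same genes counted again. Both PRPH2 entries stand in the rod and in the cone list. Among the rod markers NR2E3, a rod transcription factor, was at -0.29 (p = 0.052) and cngb1a at 0.24 (p = 0.22). DESeq2 called opn1lw1 a DEG, the 1 gene it called in the activation and cone lists.

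Markers of other tissues were present in the libraries. Erythroid markers were 6 of 11 higher at an unadjusted p under 0.05, as 4.9% of all genes were, with a median log2 fold change of 0.63. DESeq2 called 4 of them DEGs (0.315% of all genes), where edgeR called none (0.04% of all genes). alas2, the first enzyme of heme synthesis in red cells, was at 0.86 (p = 4.3e-04, FDR = 0.18, edgeR) and the globin hbae3 at 1.03 (p = 0.0012, FDR = 0.26). Their summed level ran from 736 to 1899 CPM in LIRD and from 473 to 826 CPM in CTRL. The summed level of lens markers ran from 1856 to 11859 CPM in LIRD and from 1547 to 8480 CPM in CTRL, that of exocrine pancreas markers from 1213 to 6920 and from 557 to 5128 CPM, and that of skeletal muscle markers from 3590 to 10952 and from 5128 to 8915 CPM.

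The genes with the lowest p in the other marker lists were as follows on the log2 fold change scale, none of them a DEG in edgeR. The counts beside them are at an unadjusted p under 0.05, where 4.9% of all genes were higher and 2.74% lower. Müller glia markers were 1 higher and 1 lower of 11, with the glutamate transporter SLC1A2 (ENSDARG00000052138) at -0.92 (p = 0.0019) and rlbp1a at 0.30 (p = 0.032). That SLC1A2 entry averaged 93.4 CPM in LIRD and 176 CPM in CTRL. The other SLC1A2 entry (ENSDARG00000102453) averaged 809 and 921 CPM and was at -0.19 (p = 0.12). RPE markers were 1 lower of 13, with tyrosinase, TYR, at -0.36 (p = 0.0048) and BSG at 0.18 (p = 0.14). Exocrine pancreas markers were 1 higher of 10, with the carboxypeptidase CPA1 (ENSDARG00000030915) at 1.5 (p = 0.0018) and amy2a at 0.55 (p = 0.16). That CPA1 entry averaged 23.4 CPM in LIRD and 8.3 CPM in CTRL. The other CPA1 entry (ENSDARG00000021339) averaged 263 and 238 CPM and was at 0.14 (p = 0.68). Skeletal muscle markers were 1 lower of 12, with the myosin myhz1.1 at -0.39 (p = 0.011) and TNNT3 (ENSDARG00000030270) at 0.34 (p = 0.15). The other TNNT3 entry (ENSDARG00000068457) was at 0.097 (p = 0.67). Skin markers were 1 higher of 8, with the keratins krt17 at 0.77 (p = 0.041) and krt8 at 0.26 (p = 0.12). Pineal markers were 0 of 5, with aanat2 at 0.56 (p = 0.063) and parapinopsinb at -0.34 (p = 0.097). Lens markers were 0 of 14, with CRYAB at -0.26 (p = 0.11) and BFSP1 at -0.33 (p = 0.44). The part of these tissues in the values of the 10 genes was not tested.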

How the data were processed

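Per the labels, the authors trimmed reads with Trimmomatic 0.39, aligned them with STAR 2.7.9a to GRCz11 and counted them with featureCounts of Subread 2.0.1; the methods of the study name other versions and state strand-specific counting on exons. The deposited values are raw counts per gene, of which 17 columns were matched to samples by name. Of 25281 genes, 543 were at 0 in every library and 22503 passed edgeR's filter on low counts. LIRD was compared with CTRL by edgeR 4.0.16 (R 4.3.3; TMM, robust quasi-likelihood test, Benjamini-Hochberg over all tested genes), without covariates. CPM used TMM-scaled library sizes. Steps were tested on simulated data. Ratios used log2 CPM with a prior count of 2 and the exact permutation test over 24310 regroupings of the libraries; those planned against arr3a and grk7a used both ARR3 and both GRK7 genes added up, because the paralogs could not be told apart. Which p decides a ratio was settled, as the adjusted one, after the ratios had been seen.

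The genes and lists were chosen with earlier results of these data known. Named were all 10 genes, in each other list the DEGs or else the pair with the smallest p, and the 3 genes most like saga and each ARR3 gene. The clock genes, PDE6C, opn1lw2 and opn1mw1 were chosen after their values were seen, among about 30 genes looked at. GNAT1, GNAT2, CNGA3, guca1d, slc24a2, rcvrna and rcvrnb were also named after their values were seen. 23499 genes had a symbol. Replicate numbers were not taken as pairs, since not every same-numbered pair deviated together. Alternatives were DESeq2 1.42.0, limma-voom 3.58.1, other normalization, filters, threshold, the library series, the replicate block, near-identical libraries added up, and leaving out each library. No protein or promoter sequence and no transcript length was used here, so levels were not compared between genes. Totals were 70932504 to 150347385 counts a library.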

Additional observations from a re-analysis of the deposited data

Results flagged for a closer look

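Of 36 groups of values examined, 1 held a library far from the others: the log2 ratio of sagb over saga in CTRL replicate 2 was 0.6213, and its gap to the next CTRL library was 0.608 of the group's range, over Dixon's critical value for 9 libraries. CTRL 2 had the highest saga level of the CTRL libraries, 245 CPM, and 376 CPM of sagb. Chance marks about 1 in 20 groups.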

How the results depend on the processing

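None of the 10 genes and neither RCVRN gene was a DEG in any alternative run. The count of DEGs over all genes was 9; it was 78 with DESeq2, 14 with at least 10 counts in every library, 17 with the library series as a covariate, 3891 in the first library series alone, 4 in the second alone, 5 with near-identical libraries added up, and 7 to 39 with 1 library left out (39 without LIRD 10, 14 without CTRL 8). With the replicate number as a block, edgeR called 0 DEGs (1328 genes at an unadjusted p under 0.05) and 4 of the 10 genes had an unadjusted p under 0.05, in place of 6; the deviations of same-numbered libraries had an r from -0.30 (replicate 10) to 0.51 (replicate 2), above 0.1 for 4 of 7 numbers, so whether the numbers pair the samples is not settled by these values. Adding up near-identical libraries left 2 of the 10 genes under that p, and leaving out 1 library left 4 to 7. The log2 fold change of sagb turned to -0.020 with the series covariate, -0.23 in the second series, -0.058 without LIRD 1 and -0.062 without LIRD 2 (range with 1 library left out -0.062 to 0.14); ARR3-II turned to 0.082 and RCVRN-I to 0.035 in the first series. In the first series the ratio difference of ARR3-II over ARR3-I was 0.13, that of saga over both ARR3 genes -0.44 and that of GRK1 over both GRK7 genes -0.14. In the second series saga over both ARR3 genes was 0.69 and GRK1 over both GRK7 genes 0.82. Each was past the adjusted threshold with the near-identical libraries counted separately. With each pair added up over all libraries, neither ratio passed it. With 1 library left out, ARR3-II over ARR3-I ran from -0.12 to 0.035 (turned without LIRD 6, 0.035, and LIRD 11, 0.0038), saga over both ARR3 genes from 0.34 to 0.50 and GRK1 over both GRK7 genes from 0.48 to 0.72, past the adjusted threshold without LIRD 2. The causes were not tested. Judged by the unadjusted exact p, GRK1 over both GRK7 genes (0.036) would have passed. The comparison of levels per length was not run.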
